A study of Rattus norvegicus with 38 samples.

Results

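The comparison described here asks which genes changed differently in the left atrium and the right atrium of the rat heart between the failing and the healthy state. For each gene the difference between failing and healthy left atrium was set against the same difference in the right atrium. The result is a region-by-health interaction on the log2 scale, positive where the response was more positive on the left. The interaction was tested in 14612 of the 24057 genes of the count table, those that passed a filter on low counts. It passed at an adjusted p under 0.05 in 24 genes, which are the genes described below.

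The study sequenced RNA from left atrium, right atrium, inferior and superior sinoatrial node and left ventricle of male Sprague-Dawley rats, in 38 libraries. All libraries are labelled with an age of 10 weeks. The failing and the healthy libraries carry the same description of surgery, narrowing of the ascending aorta in pups aged 1 week, with a hypertrophied left ventricle by 10 weeks. No source used here says what the healthy rats underwent instead. The 16 atrial libraries form 4 groups of 4: failing left atrium, healthy left atrium, failing right atrium and healthy right atrium. Failing left atrial libraries are LA_0409, LA_0506, LA_0507 and LA_0508, healthy ones are LA_0920, LA_0921, LA_1001 and LA_1002, and the right atrial libraries have the same codes after RA. Values are given in this order of codes. Each code appears once in each atrium and in 1 health state only. Whether a code stands for 1 animal is not stated, nor whether libraries of a group came from separate rats. The p-values of a single region therefore measure the spread between these libraries. Those of the interaction measure the spread, between these codes, of the left minus right difference. All codes differ between the states, so anything else that differs between the 2 sets of codes cannot be told apart from health.

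The left atrium collects blood from the lungs and empties into the left ventricle, the chamber that works against a narrowed aorta. The right atrium collects blood from the body and empties into the right ventricle, on the other side of the circulation. The atria become different from each other in the embryo under left-right patterning signals, and some genes stay more active on the left or on the right in the adult. Pressure or volume load on an atrium is known to be followed by growth of its muscle cells, by deposition of matrix and by changes in ion channel and hormone genes.

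The table identifies genes only by Ensembl number, and no number could be paired with a gene name here. The lists prepared for heart hormones, matrix, ion channels, sarcomere and other cell types therefore could not be applied, and the labelled tissue could not be checked against its markers. Genes are called by their rank in the interaction test, rank 1 having the smallest p, and the number is given for 4 of them. In tissue RNA, fewer cells of a type and less RNA per cell cannot be told apart. The total estimated count of the atrial libraries ran from 17406473 to 26501672. Levels are CPM, counts scaled to a common library size, which compare libraries for 1 gene and do not compare genes with each other.

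Of the 24 genes, 0.164% of those tested, 6 had a response more positive in the left atrium (0.0411%) and 18 a response more positive in the right atrium (0.123%). DESeq2 with the same block called 361 genes, 179 and 182 in these directions, the 24 among them. An unadjusted p under 0.05 was reached by 1663 genes, 11.4% of those tested, 770 more positive on the left and 893 more positive on the right. Taking the left minus right difference within each code, the 4 failing and the 4 healthy values did not overlap in 1144 genes (7.83%). They did not overlap in 23 of the 24 genes, the exception being rank 4. The median absolute interaction of the 24 genes was 1.76 on the log2 scale, and over all genes tested it was 0.18. The 24 genes were chosen by these same differences. Both contrasts with all genes therefore follow largely from that choice and are no further support. Just inside the threshold lay rank 24, with an interaction of 1.37 and an adjusted p of 0.0483, and just outside it lay rank 25, with 1.58 and 0.052.

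**Figure D1:**
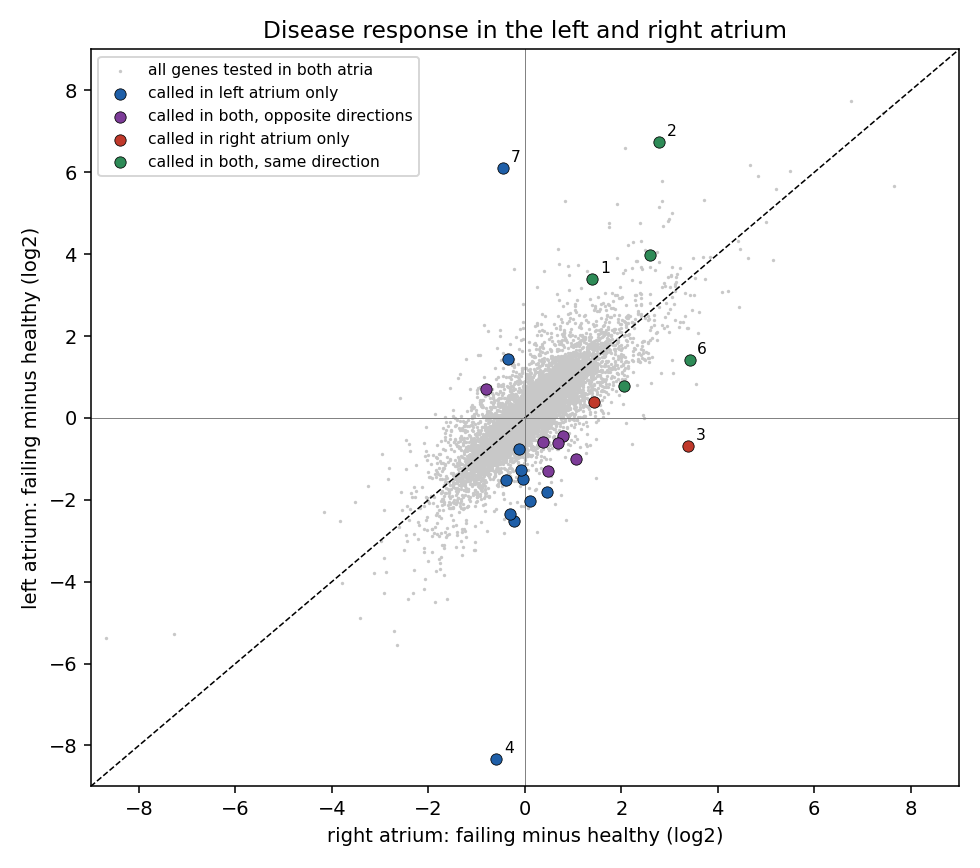
Difference between failing and healthy in the right atrium (horizontal axis, log2) against that in the left atrium (vertical axis, log2), 1 point a gene; the dashed line marks equal responses, and the 24 genes that pass the interaction are coloured by their pattern of calls. Rank 7 lies near 0 on the right and at 6.12 on the left, rank 3 lies at 3.38 on the right and at -0.68 on the left, and most other genes lie along the line.

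When each atrium was tested on its own, failing against healthy, 6853 of 14217 genes changed in the left atrium (48.2%) and 6657 of 14011 in the right atrium (47.5%). Of these, 3461 were higher and 3392 lower on the left, and 3434 higher and 3223 lower on the right. On the unscaled log2(TPM + 1) scale all genes had a median of -0.14 on the left and -0.19 on the right, and the splits were 1828 higher to 4688 lower and 1662 higher to 5121 lower (limma). Of 13849 genes tested in both, 4982 changed in both in the same direction (36%) and 21 in opposite directions (0.152%). A further 1735 were called on the left alone (12.5%) and 1607 on the right alone (11.6%). Of the 24 genes, 11 changed in the left atrium and not detectably in the right, 2 in the right and not detectably in the left, 6 in opposite directions, and 5 in the same direction by different amounts. The 24 were chosen for unlike responses, so a larger share called in 1 atrium alone or in opposite directions follows largely from that choice. These single-atrium tests use the libraries that gave the interaction, so they describe the 24 genes and do not test them again. The groups below follow this division.

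The gene with the most positive interaction was ENSRNOG00000023148 (rank 7), which rose in the left atrium. Its level was 12.3, 30.02, 32.2 and 12.2 CPM in the failing left atrial libraries and 0.316, 0.425, 0.297 and 0.176 CPM in the healthy ones. In the right atrium it was 0.507, 0.156, 0.36 and 0.865 CPM in the failing libraries and 0.584, 1.04, 0.45 and 0.444 CPM in the healthy ones. Every failing left atrial library thus stood above every other atrial library, while the failing and healthy right atrial values overlapped. The left atrial difference was 6.12 on the log2 scale (SE 0.48), and the right atrial difference was -0.45 (SE 0.51) and did not pass. The interaction was 6.43 (SE 0.76, adjusted p = 0.0165 by edgeR). It fell to 1.89 on the log2(TPM + 1) scale, where it still passed (limma, adjusted p = 0.0387).

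ENSRNOG00000054955 (rank 2) rose in both atria, and by more on the left. In the left atrium it went from 0.553, 0.27, 0.17 and 0.395 CPM in healthy libraries to 42.0, 38.4, 28.2 and 43.3 CPM in failing ones. In the right atrium it went from 11.6, 6.38, 5.53 and 9.06 CPM to 74.5, 27.6, 43.4 and 80.0 CPM. Failing and healthy values did not overlap in either atrium, and the healthy left atrium was the lowest of the 4 groups. Its libraries held only 3.97 to 13.9 estimated counts, so the size of the left atrial rise is not known closely. The difference was 6.74 (SE 0.27) on the left and 2.78 (SE 0.36) on the right, an interaction of 4.07 (SE 0.38, adjusted p = 0.0075 by edgeR). The left atrium had been 4.54 below the right on the log2 scale in healthy libraries, and in failing ones the left minus right difference was -0.47 (SE 0.19) and did not pass. On the log2(TPM + 1) scale the interaction was 1.33 and missed the threshold (limma, adjusted p = 0.101). It also missed it there after TMM scaling, at 1.21 (limma, adjusted p = 0.122). The healthy left atrial mean was 0.116 TPM, far below the added 1. On the log2(TPM + 0.1) scale the interaction was 3.29 and passed (limma, adjusted p = 0.00603).

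ENSRNOG00000064166 (rank 3) had the reverse arrangement, being far higher in the left atrium of healthy hearts and rising in the right. Healthy left atrial libraries held 91.9, 92.5, 48.4 and 96.1 CPM and healthy right atrial ones 0.539, 0.362, 0.63 and 0.355 CPM. Failing right atrial libraries held 4.40, 4.76, 5.34 and 5.46 CPM, and failing left atrial ones 77.8, 31.7, 49.4 and 48.1 CPM. The right atrial values did not overlap between the states, the left atrial ones did, and the left stayed above the right in every code. Healthy right atrial libraries held only 8.03 to 14.1 estimated counts, so the size of the right atrial rise is not known closely. The right atrial difference was 3.38 (SE 0.24) and the left atrial one -0.68 (SE 0.28, adjusted p = 0.0731 by edgeR). The left minus right difference thus went from 7.40 (SE 0.32) to 3.31 (SE 0.24), an interaction of -4.09 (SE 0.40, adjusted p = 0.00837). The left atrial decrease passed without LA_0409 (-0.93) and without LA_1001 (-0.87). With all libraries it passed in DESeq2 (-0.67, adjusted p = 0.0397) and in limma on log2(TPM + 1) (-0.74, adjusted p = 0.0188), where the gene would count as changed in opposite directions. In limma after TMM scaling of the TPM the left atrial decrease did not pass. The interaction missed the threshold on the log2(TPM + 1) scale (limma, -1.09, adjusted p = 0.101), also after TMM scaling (-0.97, adjusted p = 0.167). The healthy right atrial mean was 0.0377 TPM, far below the added 1. On the log2(TPM + 0.1) scale the interaction was -2.52 and passed (limma, adjusted p = 0.0345).

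ENSRNOG00000012278 (rank 8) fell in the left atrium. It was at 6.56, 5.95, 6.02 and 6.59 CPM in healthy left atrial libraries and at 2.10, 0.981, 0.451 and 0.892 CPM in failing ones. Right atrial libraries held 8.62, 8.24, 8.28 and 8.84 CPM when healthy and 8.26, 7.60, 4.92 and 8.27 CPM when failing. The failing left atrial libraries were the lowest of the 16, and the right atrial groups overlapped. The left atrial difference was -2.53 (SE 0.37), the right atrial one -0.23 (SE 0.17), and the interaction -2.37 (SE 0.29, adjusted p = 0.0171 by edgeR).

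**Figure D2:**
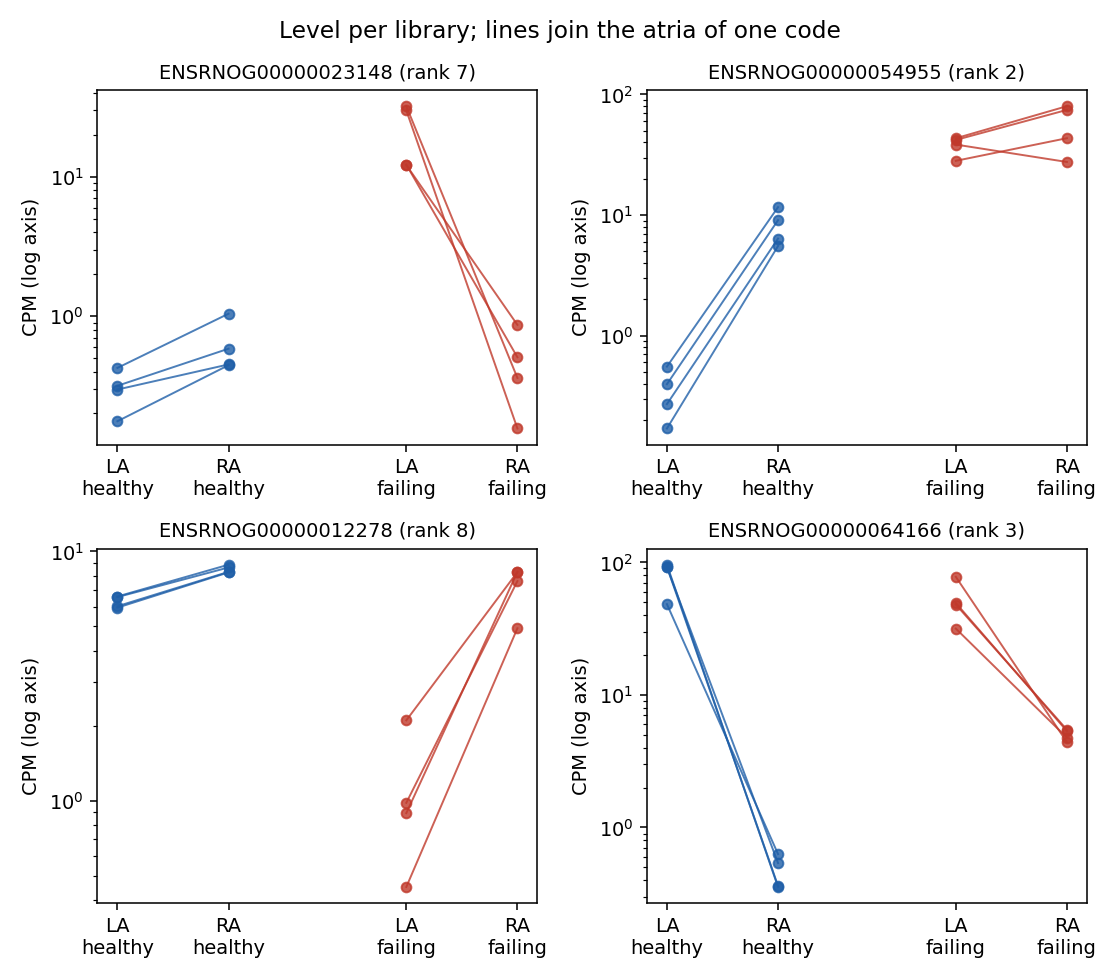
Level in CPM (log axis) of the 4 genes given by number in each of the 16 atrial libraries, with lines joining the atria of a code. Failing left atrial values stand at 12.2 to 32.2 CPM for ENSRNOG00000023148 and at 0.451 to 2.10 CPM for ENSRNOG00000012278, apart from the other groups of the same gene.

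The gene at rank 1 held its call under every alternative run. It was at 2.13, 2.82, 3.22 and 2.50 CPM in healthy left atrial libraries and at 28.5, 32.1, 25.0 and 27.6 CPM in failing ones. In the right atrium it was at 16.1, 15.1, 19.0 and 18.9 CPM in healthy libraries and at 43.8, 50.8, 35.1 and 53.5 CPM in failing ones. It rose in both atria, by 3.40 (SE 0.15) on the left and 1.40 (SE 0.14) on the right, with no overlap between the states. The interaction was 2.01 (SE 0.16, adjusted p = 0.0025 by edgeR), and it lay between 1.70 and 2.11 in the 25 alternatives, with adjusted p values of at most 0.0253. In 16 of these alternatives 1 library was left out, and leaving out either library of a code is nearly the same alternative. Like rank 2, it was lower in the left atrium than in the right in healthy hearts, by a left minus right difference of -2.69, and closer to it in failing ones, at -0.68.

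The other genes that rose in both atria were ranks 24, 6 and 23. Rank 24 rose by 3.97 on the left and 2.59 on the right. In healthy libraries it lay between 1.27 and 1.93 CPM on the left and between 2.85 and 5.44 CPM on the right, and in failing ones between 15.5 and 29.7 CPM and between 14.9 and 32.3 CPM. The failing atria therefore overlapped almost fully where the healthy ones had been apart. Ranks 6 and 23 rose more on the right, rank 6 by 3.41 against 1.41 and rank 23 by 2.05 against 0.78. Rank 6 was at 9.25 to 15.01 CPM in healthy left and 3.53 to 5.30 CPM in healthy right atrium, and at 25.7 to 47.5 and 33.95 to 66.1 CPM in the failing ones. For ranks 1, 2, 6, 23 and 24 the atrium that was lower in healthy hearts had the larger rise. The healthy left minus right difference is part of the interaction that chose these genes, so this is no separate result. By the edgeR tests with all libraries, none of the 24 genes fell in both atria, but rank 22 did by DESeq2 and limma. With 1 right atrial library left out, rank 4 did without RA_0506, rank 12 without RA_1002, and ranks 21 and 22 without RA_0409.

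Of the 11 genes called on the left alone, 9 fell there, and their ranks were 4, 5, 8, 9, 12, 14, 19, 21 and 22. Their left atrial differences ran from -8.34 to -0.76 with a median of -1.81, and their right atrial differences ran from -0.60 to 0.46. Rank 12 lost an excess of the left over the right atrium. It held 38.1, 32.7, 33.8 and 27.8 CPM in healthy left atrial libraries and 5.15, 6.27, 4.755 and 10.3 CPM in failing ones, against 4.09 to 7.90 CPM in the healthy and 4.52 to 6.41 CPM in the failing right atrium. Its left minus right difference passed at 2.36 in healthy hearts and was 0.26 (SE 0.20) in failing ones. Rank 5 began level, with a healthy left minus right difference of 0.03 (SE 0.16), and fell by 2.03 on the left to a difference of -2.12. The smallest interaction of the 24 was that of rank 21, -0.63 (SE 0.09), with a left atrial difference of -0.76. Some right atrial differences in this group passed once 1 library was left out: rank 12 without RA_1002 (-0.48), rank 14 without RA_0508 (0.76), and ranks 21 and 22 without RA_0409 (-0.32 and -0.53). With all libraries the right atrial decrease of rank 22 passed in DESeq2 (-0.40, adjusted p = 0.0327) and in limma on log2(TPM + 1) without and with TMM scaling (-0.65 and -0.42, adjusted p = 0.0165 and 0.0438).

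Rank 4 had the most negative interaction and rests on few counts. No count was assigned to it in any failing left atrial library, against 0.79, 2.36, 1.57 and 2.07 CPM in the healthy ones. A floor of 3 counts per library corresponds to 0.134 CPM there, so the failing left atrium was at least 12.7-fold lower than the healthy left atrium. In the right atrium it was at 4.00, 13.8, 7.15 and 9.86 CPM in healthy libraries and at 1.71, 19.6, 1.20 and 0.0541 CPM in failing ones. The right atrial difference was -0.60 (SE 0.98) with RA_0506, the library at 19.6 CPM, and -3.09 without it, which passed. The fitted interaction of -7.91 is no bound, since it depends on the prior count. On the log2(TPM + 1) scale it turned positive, at 0.32, and without the code in the model the adjusted p was 0.401 (edgeR).

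Rank 11 was, after rank 7, the other gene called on the left alone that rose. It was at 34.2, 59.6, 80.1 and 39.0 CPM in failing and at 21.7, 19.0, 16.5 and 20.7 CPM in healthy left atrial libraries. In the right atrium it was at 13.3 to 28.4 CPM in failing and 21.5 to 27.7 CPM in healthy libraries. The states overlapped on the right and not on the left, with differences of -0.35 (SE 0.21) and 1.45 (SE 0.25). The right atrial difference passed without RA_0507, at -0.57, and with all libraries in limma on log2(TPM + 1), at -0.64 (adjusted p = 0.0282). In limma after TMM scaling of the TPM it did not pass.

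Rank 16 was, after rank 3, the other gene called on the right alone. It was at 6.66, 15.7, 21.3 and 9.84 CPM in failing and at 6.82, 6.97, 3.19 and 2.53 CPM in healthy right atrial libraries, ranges that overlap slightly. The left atrial libraries held 3.65 to 12.1 CPM when failing and 3.52 to 7.84 CPM when healthy. The right atrial difference was 1.44 (SE 0.42), and it missed the threshold without RA_0507, RA_1001 or RA_1002, at 1.13 to 1.28. Within each code the atria were close, so the interaction of -1.11 had a small error (SE 0.16): the left minus right difference was 0.21 (SE 0.11) in healthy and -0.90 (SE 0.11) in failing hearts.

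In 6 of the 24 genes the atria changed in opposite directions. Ranks 10, 13, 15, 18 and 20 fell on the left and rose on the right, and rank 17 rose on the left and fell on the right. Rank 10 was at 31.6, 34.1, 24.2 and 33.9 CPM in healthy and 25.5, 14.2, 11.9 and 10.3 CPM in failing left atrial libraries. In the right atrium it was at 7.86, 11.1, 7.06 and 9.11 CPM in healthy and 20.5, 13.4, 19.96 and 20.2 CPM in failing libraries. The right atrial states were separate and the left atrial ones overlapped through LA_0409 and LA_1001, with differences of 1.07 (SE 0.18) and -1.01 (SE 0.26). A left atrial excess of 1.82 on the log2 scale in healthy hearts became a difference of -0.32 (SE 0.19) in failing ones.

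Across ranks 13, 15, 18 and 20 the left atrial differences ran from -1.30 to -0.45 and the right atrial ones from 0.38 to 0.79. Rank 17 was at 10.5, 18.6, 16.6 and 9.13 CPM in failing and 9.20, 8.997, 8.70 and 6.68 CPM in healthy left atrial libraries, and at 4.29, 6.70, 6.71 and 3.24 against 8.75, 8.69, 7.74 and 11.3 CPM in the right. The states overlapped slightly on the left, at 9.13 and 9.20 CPM, and not on the right. Its differences were 0.71 (SE 0.23) and -0.81 (SE 0.24). Several of these calls did not hold once 1 library was left out. On the left, ranks 15 and 17 missed the threshold without any of LA_0506, LA_0507, LA_0920, LA_0921, LA_1001 and LA_1002. On the right, rank 13 missed it without any of RA_0506, RA_0508, RA_0920, RA_0921, RA_1001 and RA_1002, ranks 15 and 18 without RA_1002 and without RA_0921 or RA_1001 respectively, and rank 17 without RA_1002. On the log2(TPM + 1) scale the right atrial rise of ranks 13, 15, 18 and 20 did not pass, nor did the left atrial rise of rank 17 (limma, 0.42, SE 0.26, adjusted p = 0.208). The right atrial rise of rank 13 also did not pass after TMM scaling (0.37, adjusted p = 0.0679). Outside the 24, 15 further genes of the 21 changed in opposite directions without passing the interaction, whose adjusted p reached 0.165 among them.

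**Figure D3:**
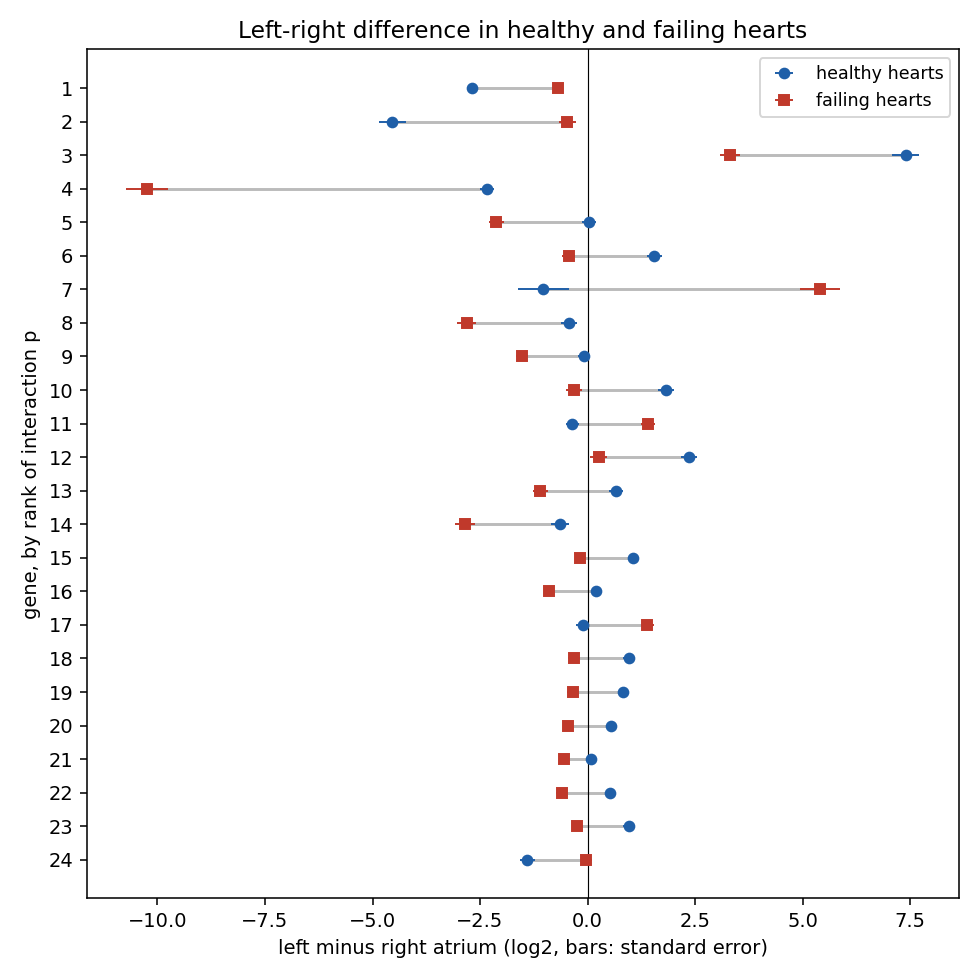
Left minus right difference (log2, points with SE) of the 24 genes in healthy and in failing hearts. For rank 3 it went from 7.40 to 3.31, for rank 2 from -4.54 to -0.47, for rank 7 from -1.03 to 5.40 and for rank 5 from 0.03 to -2.12.

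Seen as differences between the atria, the same 24 genes divided evenly. In a model of all 16 libraries, left and right differed in 451 genes of healthy hearts (3.09%) and in 567 genes of failing hearts (3.88%). Of the 24, 5 differed in both states, 9 in the healthy state alone and 10 in the failing state alone. The left-right difference was smaller in failing hearts in 12 genes (ranks 1, 2, 3, 6, 10, 12, 15, 18, 19, 20, 23 and 24) and larger in the other 12. Among all genes tested it was smaller in failing hearts in 46.9%. These counts depend strongly on the model: with only the 8 libraries of a state, 2692 genes differed in healthy hearts and 39 in failing ones.

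The 24 genes stand against responses that were mostly shared. Among the 4982 genes that changed in both atria in the same direction, the absolute response was larger on the left in 3146 (63.1%), with median absolute differences of 0.76 on the left and 0.69 on the right. Only 5 of these 4982 genes passed the interaction, and so did 11 of the 1735 called on the left alone, 2 of the 1607 called on the right alone and none of the 5504 called in neither. A gene called in 1 atrium alone was thus seldom shown to differ between the atria.

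The size of left-right differences over all genes was also compared between the states. The root mean square of the left minus right log2 difference over the 14612 genes was taken within each code. It was 0.568, 0.744, 0.746 and 0.660 in failing codes and 0.567, 0.541, 0.555 and 0.569 in healthy ones. The codes of LA_0506, LA_0507 and LA_0508 stood above all healthy ones, and that of LA_0409 lay within the healthy range. The means were 0.680 ± 0.085 and 0.558 ± 0.013 (SD, n = 4 each), and the difference of 0.122 did not pass an exact two-sided permutation test (p = 0.0571, where the smallest possible is 0.0286). On the log2(TPM + 1) scale the difference was 0.115 and passed (exact permutation p = 0.0286). Over the 4762 genes with a mean log2 CPM of at least 5 it was 0.135 and did not pass (exact permutation p = 0.114).

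**Figure D4:**
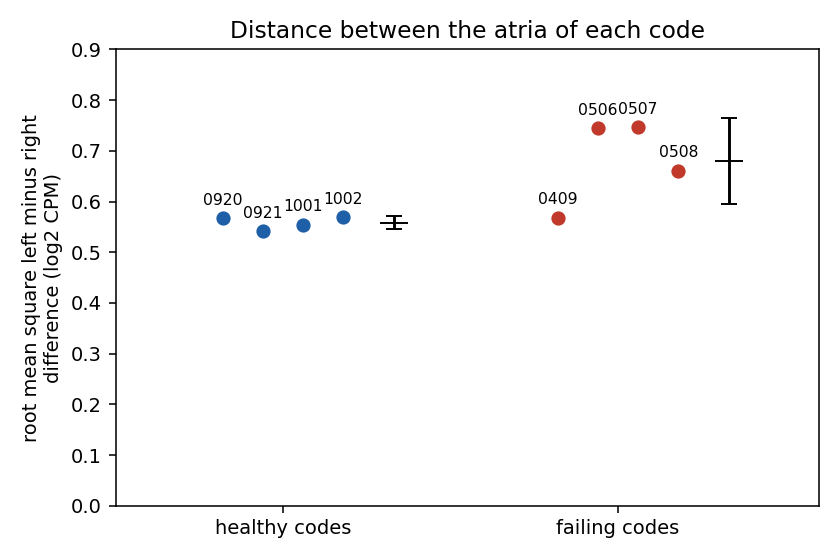
Root mean square of the left minus right difference (log2) over all genes tested, for each code, with the mean and SD of each state (n = 4). Failing codes lie at 0.568 to 0.746 and healthy codes at 0.541 to 0.569.

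The libraries of the other regions were not used to choose the 24 genes, but they carry the same codes. Anything else that differs between the 2 sets of codes can recur there. They describe how each gene responded elsewhere and are no independent test. In the inferior sinoatrial node 10 of 24 genes changed, 9 higher and 1 lower, where 38.5% of all genes tested there changed. In the superior node 7 of 24 changed, 6 higher and 1 lower, where 13.5% of all genes did. In the left ventricle, with only 2 healthy libraries, 22 of the 24 were tested and none changed, nor did any of the 13670 genes tested there (0%). The share in the inferior node was close to its background, and the share in the superior node was above it.

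Of the 24 genes, 18 had an inferior node difference nearer to the right atrial than to the left atrial one, and 16 had such a superior node difference. Over all genes tested these shares were 52.3% and 56.0%, which is not a like background. The 24 genes were chosen for unlike atrial responses, and in 16 the absolute response was larger on the left. A node with little change then lies nearer to the right atrium, so these counts do not show that the nodes respond like it. Rank 6 rose in both nodes, by 2.44 in the inferior and 2.39 in the superior, between its left and right atrial values of 1.41 and 3.41. Rank 24 rose by 1.59 and 1.94, and rank 23 by 0.71 and 1.39. Rank 1 rose by 0.76 and 1.04, against 3.40 in the left and 1.40 in the right atrium. Rank 10, which had opposite responses in the atria, rose by 0.53 in the inferior node, the direction of the right atrium.

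The left-only rise of rank 7 had a smaller counterpart in the nodes. In the inferior node it was at 7.31 ± 3.27 CPM in failing and 2.91 ± 1.07 CPM in healthy libraries (SD, n = 4 each), a rise of 1.34 (SE 0.38). In the superior node it was at 11.0 ± 6.66 and 3.58 ± 1.51 CPM, a difference of 1.62 (SE 0.51) that did not pass. Rank 11 rose in both nodes as in the left atrium, by 0.89 and 1.43. Rank 3, low in the right atrium, was at 31.1 ± 7.20 CPM in healthy and 56.0 ± 16.9 CPM in failing inferior node, a rise of 0.85, and rank 16 rose by 1.71 in the inferior and 1.57 in the superior node. Rank 21 fell in both, by 0.59 and 0.65, close to its left atrial difference. The decreases of ranks 4, 5, 8, 9, 12, 14, 19 and 22 in the left atrium did not pass in either node. Rank 8, for example, was at 9.02 ± 3.41 in failing and 12.2 ± 2.15 CPM in healthy inferior node.

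**Figure D5:**
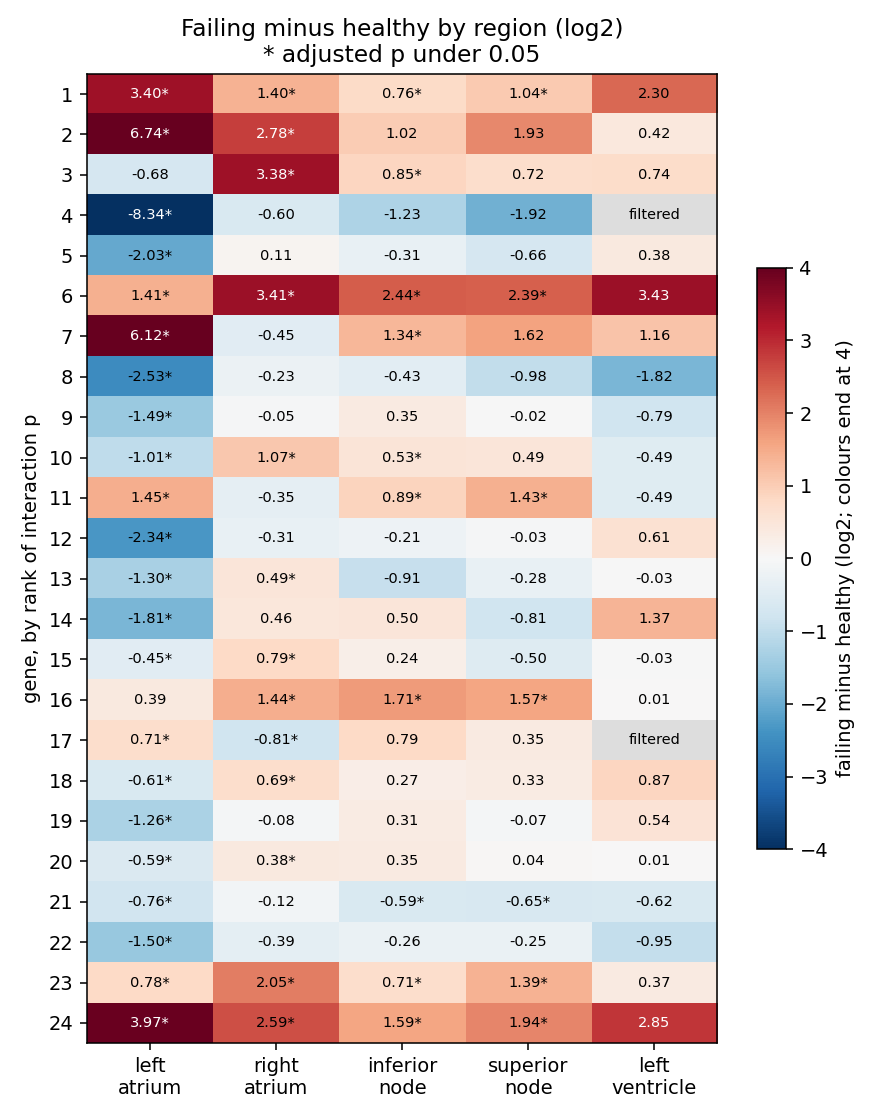
Difference between failing and healthy (log2) of the 24 genes in 5 regions, each value printed in its cell, with a star where it passed within that region and "filtered" where the gene was not tested. Rank 6 is higher in failing libraries of both atria and both nodes, and rank 7 stands at 6.12 in the left atrium, -0.45 in the right atrium and 1.34 in the inferior node.

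Which genes pass depends on the use of the code as a pair, and how many pass depends on single codes of both states. With the code as block, a library without its partner adds nothing to the left minus right difference. Leaving out either library of a code is thus nearly the same as leaving out the code, and the 2 counts are not separate checks. Without the code in the model 25 genes passed, of which 11 were among the 24 (ranks 1, 2, 3, 5, 6, 7, 8, 10, 12, 13 and 20). Without LA_0920, RA_0920, LA_1002 or RA_1002, 1 gene passed; without LA_1001 or RA_1001, 3; and without LA_0921 and RA_0921, 7 and 5. Without a failing library more passed: 102 and 103 without LA_0409 and RA_0409, 60 and 59 without LA_0507 and RA_0507, and 205 and 209 without LA_0508 and RA_0508. Leaving out LA_0506 or RA_0506 gave 26. Over the alternatives that left no library out, 5 of the 24 genes (ranks 1, 6, 7, 8 and 10) always passed.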

How the data were processed

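RNA from 5 heart regions of rats was sequenced. The submitters' processing notes name Trimmomatic 0.39, a read trimmer, and kallisto 0.48.0, a pseudoaligner, without their settings. Genome build, annotation and gene-level summing: not given in the sources used here. Values were supplied per gene: the authors made and deposited an estimated count per gene (expected counts, not whole numbers) and TPM per gene. The values of the estimated counts show a scaling for transcript length. Counts were rounded and tested with edgeR 4.0.16 in R 4.3.3 (quasi-likelihood test with robust estimation, TMM scaling, a minimum count of 10 and total of 15, Benjamini-Hochberg adjustment over all genes tested, threshold 0.05). The interaction was fitted on 16 atrial libraries with the code as block, leaving 6 residual degrees of freedom. Each region's failing against healthy difference was fitted on that region alone, without the block. Alternatives used DESeq2 1.42.0 and limma 3.58.1 on log2(TPM + 1) or log2(TPM + 0.1) of the deposited TPM. The statistics were tested on simulated data in which the atria of a code shared no effect, so the use of the code as block was not checked there. TPM and CPM intervals are not given; the number of libraries limits precision.

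The block follows the comparison's definition. The deviations of the atria from their group means correlated by 0.28 to 0.32 in the 4 healthy codes, and by 0.34, 0.09, 0.22 and -0.06 in the failing codes of LA_0409, LA_0506, LA_0507 and LA_0508. The numbers therefore paired the healthy libraries by the criterion of 0.1 and did not pair all failing ones. LA_0507 and LA_0508 correlated more with the right atrium of another failing code, at up to 0.30 and 0.15, than with their own. In the remaining codes the correlation with their own was the higher.

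All genes that passed the interaction are described. Since 0 of 24057 numbers could be matched to a name, at most 2 Ensembl numbers per direction are printed: those with the largest absolute interaction among genes whose mean log2 CPM reached 1, with no overlap of within-code differences. Other genes are added by rank as examples of their pattern. The comparison, the gene lists and the tests were chosen with earlier results of these data known. Transcript-level tables were not used here.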

Additional observations from a re-analysis of the deposited data

Results flagged for a closer look

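The difference between the atria itself was tested and passed in 24 genes. The interactions, as left minus right response on the log2 scale, were 6.43, 4.07, 2.01, 1.77, 1.504 and 1.37 for ranks 7, 2, 1, 11, 17 and 24. They were -7.91, -4.09, -2.37, -2.22, -2.15, -2.14 and -2.10 for ranks 4, 3, 8, 14, 5, 10 and 12. For ranks 6, 13, 9, 18, 15 and 23 they were -1.99, -1.76, -1.43, -1.29, -1.24 and -1.20. For ranks 19, 22, 16, 20 and 21 they were -1.17, -1.13, -1.11, -0.98 and -0.63.

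In all 98 groups of 4 values were checked, which are the 4 atrial groups of each of the 24 genes and the left-right distance in each state. In 9 of them, all of genes, 1 library stood far from the others, where chance gives about 1 in 20. For rank 3, LA_1001 was at 48.4 CPM and the other healthy left atrial libraries at 91.9 to 96.1. For rank 4, RA_0506 was at 19.6 CPM and the other failing right atrial libraries at 0.0541 to 1.71. For rank 9, LA_0508 was at 3.20 CPM against 5.41 to 5.57, and RA_0920 at 16.8 CPM against 13.5 to 14.03. For rank 10, RA_0506 was at 13.4 CPM against 19.96 to 20.5. For rank 20, RA_1001 was at 31.7 CPM against 42.0 to 43.5. For rank 21, LA_0409 and RA_0409 both stood apart, at 36.0 CPM against 25.8 to 26.4 on the left and 58.7 CPM against 36.1 to 37.9 on the right. For rank 22, LA_0409 was at 96.6 CPM against 49.96 to 52.7.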

How the results depend on the processing

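Interaction counts are given as total, more positive on the left and more positive on the right, against 24, 6 and 18. DESeq2 gave 361, 179 and 182, no filter on low counts 53, 19 and 34, limma on log2(TPM + 1) 48, 12 and 36, and limma on TMM-scaled TPM, chosen after seeing the data, 36, 10 and 26. Limma on log2(TPM + 0.1) gave 17, 6 and 11. Without the replicate block 25 genes passed (8 and 17), and with all 38 libraries 31 (9 and 22). Leaving out 1 library gave 1 to 209 genes, 1 to 82 more positive on the left and 0 to 127 on the right. With the block this is nearly the same as leaving out its code. The causes were not tested. The interaction of rank 4 reversed to 0.32 with limma on log2(TPM + 1) and to 0.24 after TMM scaling. Right atrial differences that had not passed reversed for rank 5 (-0.14, limma), and, with 1 right atrial library left out, for rank 9 (-0.17 to 0.077, positive without RA_0409, RA_0508 or RA_0920) and rank 19 (-0.22 to 0.041, positive without RA_0507). With limma on log2(TPM + 1), 1828 genes were higher in failing left atrium, and 1662 higher and 5121 lower in failing right atrium. Left-right counts in healthy hearts were 843, 425 and 418 with DESeq2 and 2692, 1353 and 1339 with the 8 healthy libraries alone, a fit chosen after seeing the data. In failing hearts they were 1014, 478 and 536 with DESeq2, and 39, 20 and 19 with the 8 failing libraries, and 192 were lower on the left without the block. The difference in left-right distance was 0.115 on the log2(TPM + 1) scale, 0.135 over genes whose mean log2 CPM reached 5, and 0.0997 to 0.159 with 1 code left out. Counts of few reads, as at rank 4 and in the lowest groups of ranks 2, 3 and 7, limit how closely the size of a difference is known. With 4 libraries a group, an exact test cannot go below 0.0286.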
